A study of Homo sapiens with 9 samples.

Results

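The genes described here are POU5F1, SOX2, NANOG, KLF4, KLF5, SALL4 and PODXL, chosen by symbol from a list of pluripotency-associated genes, and all 7 were found among the 26485 gene models counted in each library. Their RNA was measured in HAP1, a wild-type, near-haploid human cell line that grows attached to the dish and descends from KBM-7, a chronic myeloid leukaemia line. Cells grown in IMDM medium with serum were sorted as 1 cell (Single Cell Rep 1 to 3) or as 10, 100 or 1000 cells (2 libraries each), with no treatment in any group. RNA was isolated with NAxtra magnetic nanoparticles, and libraries were made with a stranded SMART-Seq kit, which amplifies cDNA before sequencing. The labels call the replicates biological without naming their cultures, so p-values measure the spread between these libraries only, and all of them are of 1 cell line.

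In embryonic stem cells, POU5F1 (OCT4), SOX2 and NANOG are transcription factors that bind enhancers together and keep one another's genes and many others active. POU5F1, SOX2, KLF4 and MYC are the factors classically used to reprogram fibroblasts to induced pluripotent stem cells. KLF5 is a Krüppel-like relative of KLF4, SALL4 is a zinc finger factor that acts with POU5F1 and with histone deacetylase complexes, and PODXL (podocalyxin) is a sialylated surface protein that carries epitopes used to recognise human pluripotent cells.

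The 7 genes lie on 7 chromosomes of hg38. POU5F1 was counted over 4 exon blocks at chr6:31164337-31170693 on the minus strand, SOX2 over a single exon at chr3:181711924-181714435 on the plus strand, and NANOG over 4 blocks at chr12:7789396-7796061 on the plus strand. KLF4 has 5 blocks at chr9:107484852-107489766 on the minus strand and KLF5 has 5 at chr13:73054976-73077542 on the plus strand. SALL4 has 4 blocks at chr20:51784044-51802509 and PODXL 9 at chr7:131500262-131556617, both on the minus strand. SOX2 lies inside the span of the noncoding gene SOX2-OT on the same strand, but shares 0 exon bases with it.

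The upstream sequences of 3 of these genes are shown as examples that hold DNA words read by members of the group. These words are the octamer core ATGCAAA (POU factors), ACAATG (SOX factors) and the GC box GGGCGG, which Krüppel-like and SP factors bind, each searched on both strands. The windows are the 250 bases before the RefSeq start site in GRCh38.p14, printed 5′ to 3′ on the gene's own strand, and the RefSeq promoter table matched 4 of the 7 genes. SOX2 is at chr3:181711675-181711924 (plus strand), with the octamer in capitals, NANOG at chr12:7789152-7789401 (plus strand), with the reverse octamer and the adjacent SOX word in capitals, and KLF4 at chr9:107489770-107490019 (minus strand), with its GC boxes on either strand in capitals.
SOX2: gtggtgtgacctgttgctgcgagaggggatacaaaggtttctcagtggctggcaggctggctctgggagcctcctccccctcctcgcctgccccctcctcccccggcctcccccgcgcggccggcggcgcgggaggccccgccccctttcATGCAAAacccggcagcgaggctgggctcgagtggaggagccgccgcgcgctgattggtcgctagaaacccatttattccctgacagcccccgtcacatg
NANOG: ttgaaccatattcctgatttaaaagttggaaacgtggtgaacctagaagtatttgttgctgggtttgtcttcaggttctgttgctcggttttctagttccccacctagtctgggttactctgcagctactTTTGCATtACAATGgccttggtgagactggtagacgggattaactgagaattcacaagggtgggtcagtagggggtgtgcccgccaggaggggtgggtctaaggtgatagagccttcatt
KLF4: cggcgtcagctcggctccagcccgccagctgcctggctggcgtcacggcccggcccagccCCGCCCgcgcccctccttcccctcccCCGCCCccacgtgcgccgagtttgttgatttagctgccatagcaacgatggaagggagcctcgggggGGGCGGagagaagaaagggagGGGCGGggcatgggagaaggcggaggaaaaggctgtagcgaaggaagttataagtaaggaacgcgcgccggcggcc
The octamer starts at position -100 in SOX2 and at -120 in NANOG, where the SOX word follows at -112. KLF4 holds 4 GC boxes, at -190, -164, -97 and -76. The SOX2 window also holds a GC box at -112, left in lower case, and the windows of 2 KLF5 start sites, not printed, hold a SOX word at -58 in the first and GC boxes at -209 and -48 in the second. Among 35116 such windows, 3.94% held the octamer core, 9.29% the SOX word and 42.6% a GC box. A further word searched, the KLF site GGGTGNGG (N is any base), was in 16.7% of them. Of the windows of the 4 matched genes, only the second of KLF5 held it, at -177, and the KLF4 window did not. A match describes letters only and does not show that a factor was bound in HAP1.

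SOX2 and POU5F1 were among the abundant RNAs of HAP1, KLF5, PODXL and KLF4 were at intermediate levels, SALL4 was near 1 CPM (read counts relative to a library size scaled with edgeR's TMM), and NANOG was close to absent. By mean CPM over the 9 libraries SOX2 ranked 89 and POU5F1 264 among all gene models, followed by PODXL at 1031, KLF5 at 2746, KLF4 at 4533, SALL4 at 12786 and NANOG at 16838. The libraries held 42842970 to 61645865 assigned counts, so 1 count was worth 0.0161 to 0.0231 CPM. Single-cell libraries detected 13968 to 14478 gene models and the others 16283 to 18634. In libraries of many cells, fewer cells that express a gene and less RNA per cell cannot be told apart.

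POU5F1 was measured at 478 and 412 CPM in the 10-cell, 516 and 398 CPM in the 100-cell and 415 and 419 CPM in the 1000-cell libraries, a mean of 439.5 ± 46.5 CPM (SD, n = 6). The single cells gave 419.9, 265 and 797 CPM for Rep 1, 2 and 3. Rep 1 lay inside the range of the 6 libraries, Rep 2 below it at 0.603 times their mean and Rep 3 above it at 1.81 times.

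SOX2 was at 1003 and 769 CPM in 10 cells, 939 and 773 CPM in 100 cells and 785 and 760 CPM in 1000 cells (mean 838 ± 105 CPM, SD, n = 6). The single cells gave 747, 735 and 1366 CPM. Rep 1 and Rep 2 lay slightly below all 6 libraries, at 0.891 and 0.877 times their mean, while Rep 3 lay above all of them at 1.63 times.

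NANOG had 0 and 1 count in the 10-cell libraries, 0 and 2 in the 100-cell libraries and 2, 1 and 0 in the single cells. At 1000 cells it had 10 and 12 counts, equal to 0.231 CPM (exact Poisson 95% interval 0.111 to 0.424) and 0.193 CPM (0.0999 to 0.338), intervals that cover counting error only. NANOG was therefore detected above a floor of 3 counts only in the 1000-cell libraries, and in Single Cell Rep 3 its 0 counts allow up to 0.0575 CPM by that floor.

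KLF4 was at 40.9 and 48.1 CPM in 10 cells, 23.3 and 30.02 CPM in 100 cells and 38.1 and 37.7 CPM in 1000 cells (36.4 ± 8.67 CPM, SD, n = 6). The single cells gave 87.7, 6.55 and 144 CPM, which are 2.41, 0.18 and 3.95 times that mean. All 3 single cells lay outside the range of the 6 libraries, Rep 2 below and the others above.

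KLF5 was at 72.3 and 81.1 CPM in 10 cells, 74.5 and 64.4 CPM in 100 cells and 67.9 and 65.2 CPM in 1000 cells (70.9 ± 6.37 CPM, SD, n = 6). The single cells gave 125, 152 and 79.96 CPM (119 ± 36.5 CPM, SD, n = 3). Rep 1 and Rep 2 were above all 6 libraries, whereas Rep 3 fell within their range.

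SALL4 had 71 and 34 counts in 10 cells, 66 and 71 in 100 cells and 67 and 63 in 1000 cells, or 1.25 ± 0.350 CPM (SD, n = 6). The single cells had 0, 140 and 270 counts, or 0, 2.75 and 5.17 CPM. Rep 2 and Rep 3 were above all 6 libraries, at 2.19 and 4.13 times their mean. Taking 3 counts in its library as the floor, Rep 1 was at least 21.6-fold lower than that mean and 89.3-fold lower than Rep 3. That floor covers counting error only, and loss of RNA before sequencing was not tested. Wide ranges were common at this level. The 1867 genes within 2-fold of the SALL4 mean had a median range of 5.51 on the log2 CPM scale among the single cells.

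PODXL was at 186 and 219.9 CPM in 10 cells, 194 and 177 CPM in 100 cells and 180.0 and 189.8 CPM in 1000 cells (191 ± 15.4 CPM, SD, n = 6). The single cells gave 323, 129 and 115 CPM. Rep 1 was above the range of the 6 libraries at 1.69 times their mean, and the other single cells were below it at 0.675 and 0.604 times.

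**Figure D1:**
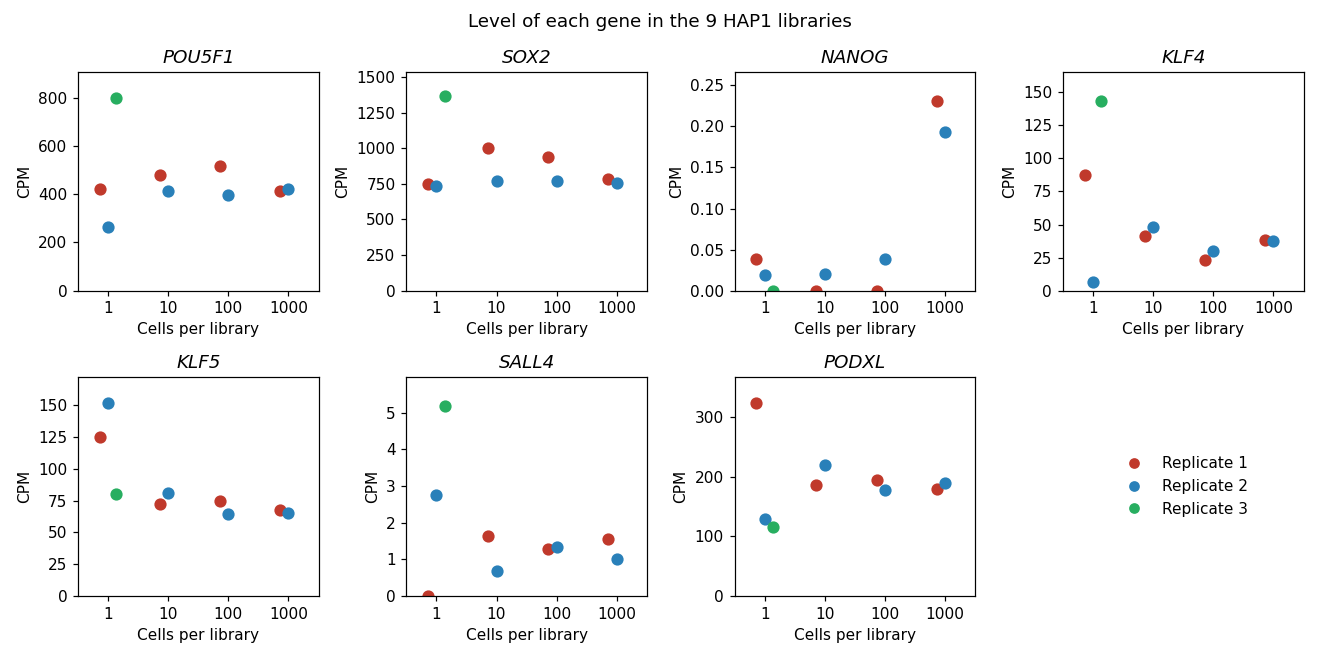
CPM of each gene (vertical axes from 0, different scale in each panel) against the number of cells per library, with 1 point per library coloured by replicate number, which does not link libraries of different cell numbers. Single Cell Rep 3 is the highest library for POU5F1, SOX2, KLF4 and SALL4, Rep 1 for PODXL and Rep 2 for KLF5, and NANOG exceeds 0.1 CPM only at 1000 cells.

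Levels of different genes were compared per kilobase of exon. POU5F1 is also placed on 6 alternate haplotype sequences in the gene models, which makes its recorded length 7.03 times that on chromosome 6, so only the 2768 exon bases on chromosome 6 were used. In the 6 libraries of more cells the order was SOX2, POU5F1, PODXL, KLF5, KLF4, SALL4 and NANOG. POU5F1 spanned 144 to 186 CPM per kb, and no library of SOX2 (at least 302.5) or PODXL fell in that range. Reads that also matched the alternate haplotypes would not have been counted if the aligned genome held them, which the sources used here do not state, so POU5F1 may be undercounted relative to SOX2. KLF5 and KLF4 were the nearest neighbours, with the lowest KLF5 library at 17.2 and the highest KLF4 library at 16.4 CPM per kb.

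SOX2 and POU5F1 stayed first and second in every single cell, and the order below them differed between cells. In Rep 1 PODXL (54.0 CPM per kb) preceded KLF5 (33.4) and KLF4 (29.9). In Rep 2 KLF5 (40.6) preceded PODXL (21.6), and KLF4 was far lower at 2.23 CPM per kb. In Rep 3 KLF4 (48.9) came before KLF5 (21.3) and PODXL (19.3).

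The 7 genes did not share 1 order across the single cells. POU5F1, SOX2 and KLF4 rank Rep 2 lowest, Rep 1 in the middle and Rep 3 highest, although the SOX2 values of Rep 1 and Rep 2 differ little. SALL4 was also highest in Rep 3, so 4 of the 6 genes tested were highest there, beside 32.5% of all genes tested, but its lowest cell was Rep 1. KLF5 ran the other way for Rep 3, its lowest cell, with Rep 2 highest, and PODXL was lowest in Rep 3 and highest in Rep 1. With 3 cells no correlation between genes was computed over the single cells alone.

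On the log2 CPM scale the differences from the mean of the 6 libraries were -0.06, -0.72 and 0.87 for POU5F1 in Rep 1, 2 and 3. For SOX2 they were -0.16, -0.18 and 0.71, and for KLF4 1.31, -2.43 and 2.02. KLF4 thus moved in the direction of POU5F1 in Rep 2 and Rep 3 with larger differences, and went apart from it in Rep 1. KLF5 differed by 0.83, 1.11 and 0.18 and PODXL by 0.76, -0.56 and -0.72. SALL4 differed by -4.98, 1.16 and 2.07, the first of which depends on the prior count of 2 because that cell had 0 counts.

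**Figure D2:**
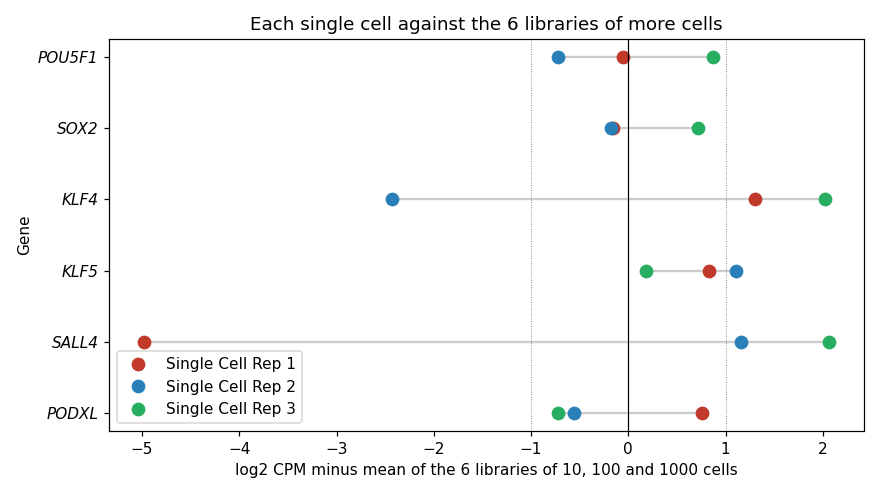
Difference in log2 CPM of each single cell from the mean of the 6 libraries of 10, 100 and 1000 cells (horizontal axis) for 6 genes (rows), with dotted lines at -1 and 1. POU5F1, SOX2, KLF4 and SALL4 have Rep 3 farthest right, at 0.87, 0.71, 2.02 and 2.07, whereas KLF5 and PODXL have it farthest left.

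A single cell was counted as beyond the 6 libraries where its log2 CPM lay outside their range and more than 1 from their mean. By this rule 3 of the 6 genes tested were beyond them in at least 1 cell, beside 46.7% of all genes tested and 24.5% of those averaging 10 CPM or more. KLF4 was above in Rep 1 and Rep 3 and below in Rep 2, SALL4 was below in Rep 1 and above in Rep 2 and Rep 3, and KLF5 was above in Rep 2. Of all 15603 genes tested, 9.32% were above and 16.2% below in Rep 1, 8.27% and 17.2% in Rep 2, and 10.6% and 21% in Rep 3. Among the 9875 genes averaging 10 CPM or more, these shares were 3.52% and 5.05%, 2.5% and 5.1%, and 5.33% and 8.46%.

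The range among the single cells exceeded 1 on the log2 CPM scale for 4 of the 6 genes, POU5F1 (1.59), KLF4 (4.45), PODXL (1.49) and SALL4 (7.05, dependent on the prior count), against 52% of all genes tested. KLF5 (0.93) and SOX2 (0.89) stayed below it. The share of all genes falls with level, to 35.6% of genes averaging 10 CPM or more. Each gene was also read against the genes within 2-fold of its own level, itself included. POU5F1 had the largest range of 712 such genes, whose median range was 0.36, and 0.124% of 4835 genes exceeded KLF4. The shares exceeding PODXL and SOX2 were 0.845% and 2.24%, and those exceeding KLF5 and SALL4 were 23.7% and 19.7%. The genes were chosen with earlier results of these data known, so these shares are a description and carry no test.

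In an exact one-sided permutation test of the SD of log2 CPM over all 84 choices of 3 of the 9 libraries, KLF4, SALL4, SOX2 and PODXL each gave p = 0.0119, the smallest possible. POU5F1 gave p = 0.0714 and KLF5 p = 0.476 in the same exact test. The 84 choices include those that keep the lowest and highest single cell, so p also depends on the middle cell. The larger p of POU5F1 therefore does not rank it as less spread than SOX2. Of all genes tested, 29.6% had p under 0.05. The SD was 2.39 for KLF4, 0.82 for PODXL, 0.80 for POU5F1, 0.51 for SOX2 and 0.48 for KLF5, with n = 3. Leaving out 1 single cell ended each of these results, and the cell differed between genes. Without Rep 1 the exact permutation p became 0.5 for SALL4 and 0.643 for PODXL, without Rep 2 it became 0.571 for KLF4, and without Rep 3 it became 0.893 for SOX2. POU5F1 passed without Rep 1, at an exact permutation p of 0.0357.

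Across the 6 libraries of more cells, SOX2 and POU5F1 were both highest in 10 Cell Rep 1 and 100 Cell Rep 1. Pearson's r of log2 CPM with POU5F1 was 0.894 for SOX2 (Spearman's rho 0.543, n = 6), a value exceeded by 2.14% of 9874 genes, and 0.954 for MYC (rho 0.771), exceeded by 0.466%. KLF4, by contrast, had r = -0.50 with POU5F1 in these libraries and 0.80 over all 9, so its sign turned when the single cells were added. These coefficients describe libraries that share their preparation and carry no test. MYC, the fourth reprogramming factor, gave 710.4, 764 and 1396 CPM in Rep 1, 2 and 3 against 845 ± 107 CPM (SD, n = 6), highest in Rep 3 as POU5F1, SOX2, KLF4 and SALL4 were.

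**Figure D3:**
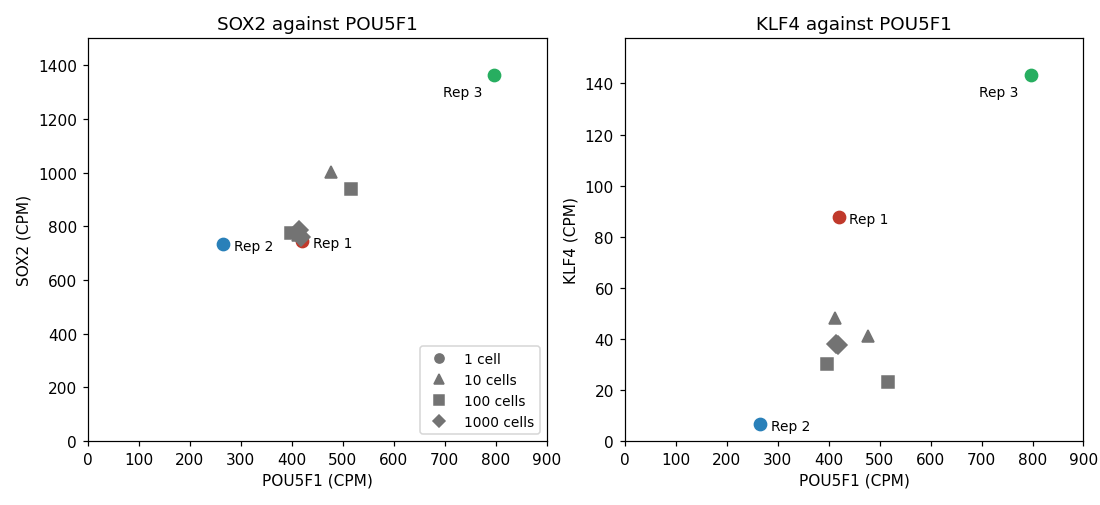
CPM of SOX2 (left) and KLF4 (right) against CPM of POU5F1, with 1 point per library, the 3 single cells coloured and numbered and the libraries of 10, 100 and 1000 cells in grey by shape. Single Cell Rep 3 lies at the upper right of both panels, at 797 CPM of POU5F1 with 1366 CPM of SOX2 and 144 CPM of KLF4, while Rep 1 lies far above the grey points in KLF4 (87.7 CPM) and just below them in SOX2 (747 CPM).

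Among all genes averaging 10 CPM or more, those whose log2 CPM was most like that of POU5F1 over the 9 libraries were PRICKLE3 (r = 0.982), ORAI2 (0.972), TBL2 (0.972), CCND1 (0.971) and TRIM38 (0.968). CCND1, which encodes the G1 cyclin D1, gave 5.79, 2.86 and 43.1 CPM in Rep 1, 2 and 3 against 10.5 ± 2.33 CPM in the 6 libraries (SD, n = 6). For SALL4 they were ULK4 (0.994), ZNF839 (0.990), ITGA9 (0.990), CSTF1 (0.989) and MIR3609 (0.987). For KLF4 they were MYOM1 (0.990), MYOF (0.989), ZNF682 (0.980), PIK3AP1 (0.980) and FBXO18 (0.980). MYOM1 gave 33.7, 2.86 and 66.4 CPM in Rep 1, 2 and 3 against 17.5 ± 4.33 CPM in the 6 libraries. These were the highest of 9870 values for each gene and are given as a description over libraries that share their preparation. All rest mainly on the single cells, where these genes varied most. For SALL4 the SD of log2 CPM was 3.84 among them and 0.44 in the 6 libraries. Its value in Rep 1 depends on the prior count because that cell had 0 counts.

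Copies of POU5F1 elsewhere in the genome make its counts uncertain, because reads that match several places were left out and near-identical reads can be split. POU5F1P3 gave 97.0, 52.2 and 126 CPM in Rep 1, 2 and 3 (66.95 ± 6.73 CPM in the 6 libraries) and POU5F1B at 15.9, 21.8 and 47.7 CPM (25.4 ± 3.51 CPM), so both were highest in Rep 3, like POU5F1. POU5F1P5 was instead lowest in Rep 3, on 1 count, at 7.78, 2.73 and 0.0192 CPM against 1.72 ± 0.435 CPM. POU5F1P4 was at 16.9, 11.1 and 14.6 CPM against 6.76 ± 1.16 CPM. For single cells against the 6 libraries its log2 fold change was 1.07 (SE 0.28, adjusted p = 0.0452, edgeR quasi-likelihood test). In that comparison 6.67% of 15603 genes passed. Which copy these reads came from was not tested.

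Whether RNA of these genes changed with the number of cells was asked with edgeR's quasi-likelihood test, adjusted by Benjamini-Hochberg over all genes. The test fits 1 dispersion per gene to both groups, although the single cells differed more from one another. Chi-square per degree of freedom was 234 to 290 between single cells and 6.01 to 31.5 between replicates of the other cell numbers. The SE for single cells against the 6 libraries therefore also draws on the smaller spread of the latter. For single cells against the 6 libraries, KLF5 rose, with a log2 fold change of 0.75 (SE 0.17, adjusted p = 0.0274). It was the only member that passed, 1 of 6 tested, beside 6.67% of 15603 genes. Rep 1 and Rep 2 lay above the 6 libraries and Rep 3 within their range, and the call held without any 1 of the single cells. It was lost with the 4 cell numbers as separate groups (adjusted p = 0.106) and without 100 Cell Rep 2 (0.0703), 1000 Cell Rep 1 (0.0697) or 1000 Cell Rep 2 (0.0711), settings in which edgeR called 0 genes in all.

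KLF4 and SALL4 had larger but less certain log2 fold changes in the same edgeR test, 1.12 (SE 0.58, adjusted p = 0.265) and 1.07 (SE 1.11, adjusted p = 0.613). POU5F1 gave 0.17 (SE 0.25, adjusted p = 0.74), SOX2 0.18 (SE 0.18, adjusted p = 0.602) and PODXL -0.01 (SE 0.26, adjusted p = 0.981). In these genes the single cells lay on both sides of the 6 libraries. The KLF4 and SALL4 values depended on which single cells entered. Without Single Cell Rep 3 the edgeR values were 0.37 (adjusted p = 0.715) for KLF4 and 0.13 (adjusted p = 0.954) for SALL4. With the replicate number as a block they were 0.08 (adjusted p = 0.956) and -0.14 (adjusted p = 0.965). That block also takes Rep 3 out of the contrast, because only the single cells have a replicate 3. Without Single Cell Rep 2 KLF4 passed the edgeR test at 1.67 (adjusted p = 0.00401), and without Single Cell Rep 1 PODXL passed it in the lower direction at -0.65 (adjusted p = 0.00472). NANOG was left out by the filter on low counts.

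For 10 against 1000 cells edgeR called 0 of 15449 genes (0%, with 1735 at an unadjusted p under 0.05 and 196 called by DESeq2). The edgeR log2 fold changes were 0.10 for POU5F1, 0.20 for SOX2, 0.24 for KLF4, 0.21 for KLF5, 0.14 for PODXL and -0.13 for SALL4, with adjusted p from 0.445 to 0.967. For 100 against 1000 cells it called 0 of 15597 (0%, with 314 unadjusted and 1 by DESeq2). KLF4 was lower in both 100-cell than in both 1000-cell libraries, with a log2 fold change of -0.51 (SE 0.14, edgeR unadjusted p = 0.0063, adjusted p = 0.952). NANOG, tested here, gave -3.31 (SE 1.56, edgeR adjusted p = 0.952) on 0 and 2 counts against 10 and 12.

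**Figure D4:**
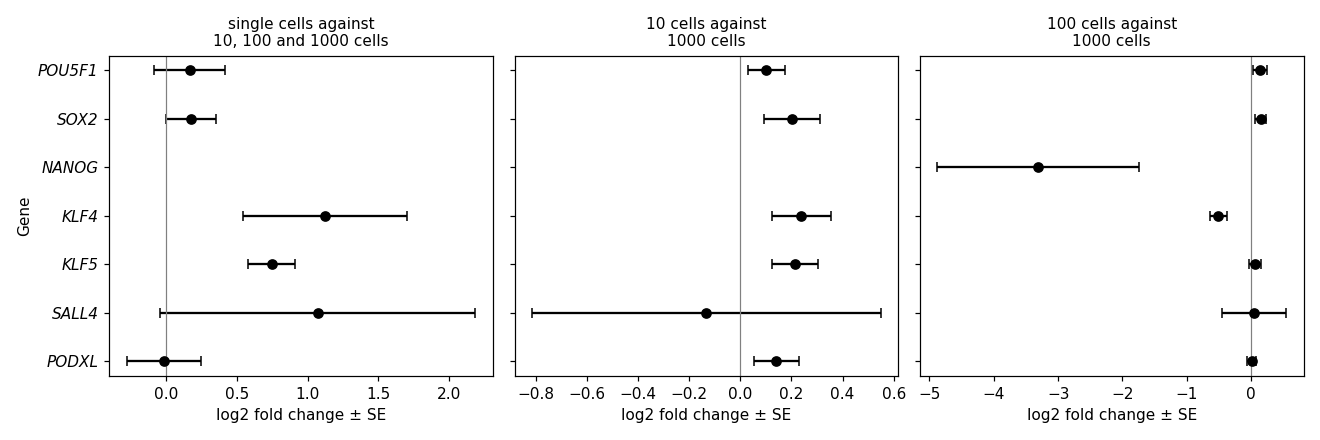
Log2 fold change with its standard error (horizontal axes, different scale in each panel) of each gene in the 3 comparisons, from edgeR. KLF5 in the first panel (0.75, SE 0.17) passed the test, no gene in the other panels did, and NANOG appears only where it passed the filter on low counts.

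Of 41 other genes of the pluripotency network, 29 were tested for single cells against the 6 libraries, 1 rose and 1 fell, with a median log2 fold change of 0.01, beside 0.01 over all genes. This and the list counts that follow are to be read beside the 6.67% of all genes that passed this comparison (347 higher and 694 lower of 15603). NR5A2, a nuclear receptor that can stand in for POU5F1 in reprogramming, rose by a log2 fold change of 1.12 (SE 0.23, edgeR adjusted p = 0.0247), at 33.2, 31.8 and 69.4 CPM against 20.6 ± 1.90 CPM (SD, n = 6). ZNF281, a zinc finger factor of the same network, fell by 0.56 on the log2 scale (SE 0.12, edgeR adjusted p = 0.0249), at 42.7, 59.4 and 56.01 CPM against 77.8 ± 3.21 CPM. In both genes, named because they passed, the single cells did not overlap the 6 libraries. The share of all genes without overlap was not counted, here or for the lists that follow. The calls of NR5A2, ZNF281 and POU5F1P4, and those of the lists that follow, were lost in the settings named for KLF5 in which 0 genes passed.

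LIN28A, an RNA-binding protein that blocks let-7 maturation differed widely between the single cells. It had 0.0386 and 0.216 CPM in Rep 1 and Rep 2 but 45.3 CPM in Rep 3, beside 28.9 ± 6.16 CPM in the 6 libraries. ZFP42 (REX1), a marker of naive pluripotency, was at 20.7, 0.0392 and 13.2 CPM beside 5.74 ± 1.00 CPM, low in Rep 2 as KLF4 was. DNMT3L, a cofactor of DNA methylation, was at 0, 0 and 10.7 CPM beside 0.948 ± 0.491 CPM.

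MYC, TRIM28 and OTX2 were the highest of the network per kilobase, at 357, 168 and 82.3 CPM per kb in the 6 libraries. OTX2, a factor of primed pluripotency and forebrain, gave 135, 276 and 199 CPM in Rep 1, 2 and 3.

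Of 15 KLF genes other than KLF4 and KLF5, 11 were tested for single cells against the 6 libraries, 1 rose and 0 fell, beside 6.67% of all genes called. Their median log2 fold change was 0.59, beside 0.01 over all genes. KLF7, which is best known from neurons, was the gene that rose, at 82.9, 108 and 139 CPM against 62.1 ± 3.65 CPM (log2 fold change 0.82, SE 0.14, edgeR adjusted p = 0.0184), with all single cells above the 6 libraries. KLF2, which with KLF4 and KLF5 sustains naive mouse stem cells, was at 1.00, 0.686 and 23.4 CPM against 3.07 ± 0.354 CPM, so that it shared Rep 3 as highest and Rep 2 as lowest with KLF4. KLF6 had the same order at 31.7, 20.5 and 80.97 CPM, while KLF12, a repressor, was highest in Rep 2 at 82.9 CPM and lowest in Rep 3 at 12.2 CPM.

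**Figure D5:**
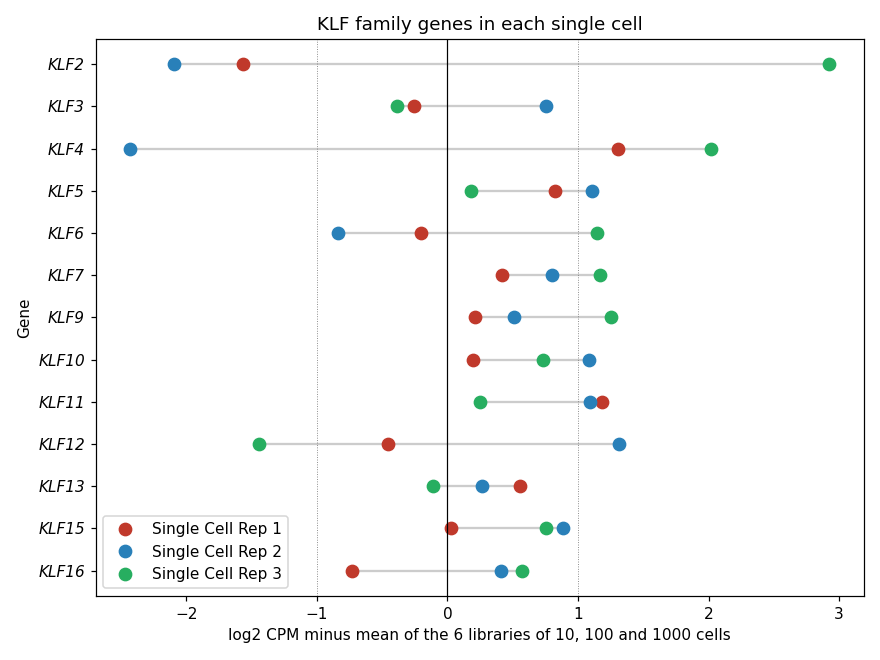
Difference in log2 CPM of each single cell from the mean of the 6 libraries (horizontal axis) for KLF4, KLF5 and the 11 tested relatives (rows), with dotted lines at -1 and 1. KLF2, KLF4 and KLF6 have Rep 2 at the left and Rep 3 at the right, and KLF5, KLF7, KLF9, KLF10, KLF11 and KLF15 have all 3 cells to the right of 0.

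The SALL4 relatives SALL1, SALL2 and SALL3 were far more abundant than SALL4, at 58.9, 63.5 and 64.5 CPM in the 6 libraries, and 0 of 3 passed the test (median log2 fold change -0.01). In the SOX, POU, chromatin partner and podocalyxin lists 1 gene each passed, beside 6.67% of all genes. Of 18 other SOX genes, 12 were tested (median 0.11) and SOX7 fell, at 0.734, 2.75 and 1.59 CPM against 10.8 ± 1.08 CPM (log2 fold change -2.67, SE 0.45, edgeR adjusted p = 0.0184). Of 14 other POU genes, 9 were tested (median 0.08) and POU5F2 fell, with 0 counts in all single cells against 1.33 ± 0.516 CPM, at least 68.8-fold lower with 3 counts over the single cells as the floor (edgeR adjusted p = 0.0184). Among 20 chromatin partners of POU5F1 and SOX2, all tested (median -0.06), SMARCD1 alone passed, lower at 75.1, 70.9 and 75.0 CPM against 94.3 ± 6.02 CPM (edgeR adjusted p = 0.0419).

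Of the 7 relatives and partners of podocalyxin, 6 were tested (median -0.28) and EZR (ezrin), which ties PODXL to actin, fell. It was at 335, 337 and 356 CPM against 454 ± 18.9 CPM (log2 fold change -0.41, SE 0.062, edgeR adjusted p = 0.0153), with no overlap. PODXL2, its paralogue, was at 93.5, 79.1 and 47.95 CPM against 63.1 ± 4.79 CPM, highest in Rep 1 and lowest in Rep 3 as PODXL was. In the comparisons of 10 and of 100 with 1000 cells, 0 genes of any list passed.

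Markers of other lineages were examined beside these genes. The edgeR test covered 18 of 24 germ layer and trophectoderm, 5 of 9 fibroblast, 2 of 8 plasma cell and 1 of 12 blood lineage markers, and 0 of those tested passed. The germ layer and trophectoderm markers' summed level was 469 to 549.7 CPM in the single cells and 423 to 481 CPM in the 6 libraries, with NES and GATA2 contributing most (257 and 52.2 CPM on average in the 6 libraries). These sums hide markers that differed widely between the single cells. The 3 named next had the largest range among those averaging at least 1 CPM, at 8.66 for GATA4, 8.26 for PAX6 and 7.48 for EOMES (log2 CPM). They averaged 3.36, 4.01 and 1.82 CPM over the 9 libraries. Wide ranges were common at low levels, with a median of 5.51 in the 1867 genes within 2-fold of SALL4 (mean 1.71 CPM). In Rep 1, 2 and 3 GATA4 was at 15.9, 5.687 and 0 CPM against a mean of 1.445 CPM in the 6 libraries. PAX6 was at 12.03, 0 and 0.2299 CPM against 3.964 CPM, and EOMES at 0.8884, 6.961 and 0 CPM against 1.427 CPM. The 9 fibroblast markers summed to 53.8 to 174 CPM and 122 to 146.5 CPM, mostly PDGFRA, with DCN and LUM at 0 in all libraries. The 8 plasma cell markers summed to 42.6 to 61.9 CPM and 46.9 to 54.6 CPM, nearly all SDC1. The 12 blood lineage markers summed to 0.0192 to 13.8 CPM and 0.589 to 3.93 CPM, with TAL1 leading, GATA1 at 0 in all libraries and PTPRC at 0 in 8 of them. TAL1 was at 10.95, 10.18 and 0.01916 CPM in Rep 1, 2 and 3 against 1.575 CPM in the 6 libraries. ITGAM had the same order of cells, at 2.8, 1.628 and 0 CPM against 0.01574 CPM in the 6 libraries. It had 228 counts over the single cells and 5 over the 6 libraries, and edgeR did not test it. BCR (4.56 to 25.9 CPM) and ABL1 (5.75 to 20.4 CPM), the genes of the fusion known in this line, were detected in every library. The part of these markers in the differences between single cells was not tested.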

How the data were processed

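The 9 HAP1 libraries were processed by the authors as follows. Read quality was inspected (FastQC 0.11.9), adapters were removed (Trim Galore 0.6.7), and alignment used the hg38 genome (HISAT2 2.2.1), followed by sorting (SAMtools 1.16.1) and counting over exons by featureCounts (Subread 2.0.6, reverse strand). The submitters' notes also name DESeq2 1.44.0. The deposited values are raw counts of single reads per gene model, without molecular identifiers, and reads with several matches were left out. The annotation release is not given in the sources used here.

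Counts were analysed in R 4.3.3 with edgeR 4.0.16 (TMM, filterByExpr, quasi-likelihood test, Benjamini-Hochberg adjusted p under 0.05 over all genes), limma 3.58.1 and DESeq2 1.42.0 as an alternative. Log2 CPM used a prior count of 2. The comparisons were single cells against the 6 libraries of 10, 100 and 1000 cells, and 10 and 100 cells each against 1000 cells. Spread was tested by exact permutation. Intervals are exact Poisson at 95%, and floors are 3 counts, both covering counting error only. The scripts were tested on simulated data. Totals were 42842970 to 61645865 counts.

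Besides the members, the genes named were, of each list, those that passed the first comparison, up to 3 of highest level per kilobase and up to 3 of largest range, and the 5 most like POU5F1, SALL4 and KLF4. The POU5F1 copies, GATA2, BCR, ABL1 and the blood and fibroblast markers at 0 were added outside that rule. The members and lists were chosen with earlier results of these data known. Replicates differed beyond sampling noise (chi-square per degree of freedom from 6.01 to 290.4), so none was merged. Normalization, filter, tool, prior count, depth, replicate number and each library were varied.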

Additional observations from a re-analysis of the deposited data

How the results depend on the processing

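For single cells against the 6 libraries, 1041 genes passed, and 682 did with no filter, 576 with at least 10 CPM in 2 libraries, 3123 with DESeq2, 2077 with the replicate block, 0 with the 4 cell numbers as groups and 0 to 3188 when each library was left out. Of the members, 1 passed, 0 with the 4 cell numbers as groups and 0 to 2 with a library left out. KLF5 stayed past the threshold in 11 of 15 alternatives, at 0.53 to 0.97. For 10 against 1000 cells, 0 genes passed, and 123 did with no filter, 9 at 10 CPM, 196 with DESeq2, 55 with the replicate block and 13 to 4721 with a library left out. There, 0 to 3 members passed, KLF4, KLF5 and PODXL without 10 Cell Rep 1 and POU5F1 and SOX2 without 10 Cell Rep 2. For 100 against 1000 cells, 0 genes passed, and 31 did with no filter, 1 with DESeq2, 20 with the replicate block and 3 to 4951 with a library left out. Here 0 to 3 members passed, POU5F1, KLF4 and SOX2 without 100 Cell Rep 2. A lone library left in a group was assumed to vary like the others. Causes were not tested. The replicate block changed no member's call, and same-numbered libraries did not deviate together (correlations -0.0853 to 0.0418), so the numbers were not taken as pairs. Counting depth limits NANOG and SALL4. The 3 single cells limit everything said of spread, and an edgeR p in these designs does not show that values were alike.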
